A study of Mus musculus with 120 samples.

Results

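The genes described here were the SR and hnRNP splicing factor genes together with the SF3a, SF3b and U2AF subunit genes, followed across the activation of single mouse group 2 innate lymphoid cells (mILC2s). Members were the protein-coding genes whose symbols begin with Srsf and a digit, Hnrnp, Sf3a, Sf3b or U2af, or are Tra2a or Tra2b, which gave 45 of the 46078 genes listed. They comprised 11 SR protein genes, 2 Tra2 genes, 20 hnRNP genes, 9 SF3a or SF3b genes and 3 U2AF genes. The rule reads symbols and uses no measured value, though the family was picked with earlier results of these data known.

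SR proteins bind exon sequences through RNA recognition motifs and recruit the splicing machinery through arginine and serine rich tails, whereas many hnRNPs coat nascent transcripts and oppose exon inclusion. U2AF reads the end of the intron and SF3a and SF3b hold the U2 small nuclear ribonucleoprotein on the branch site, so these proteins meet at the same step of intron recognition. In lymphocytes such factors are best known for switching exons of the CD45 transcript upon activation.

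The libraries came from 120 single mILC2s, innate lymphocytes that secrete interleukin (IL)-13 and IL-5 when exposed to IL-33. The cells were wildtype C57BL/6 and lineage-negative, c-Kit+ and Sca-1+ by sorting, came from the pooled mesentery of 20 mice (fat tissues), and were kept in culture for months before the experiment, so no cell could be traced to an animal. According to the study's methods, the medium of that culture held IL-2. Pre-stimulation cells received no further stimulus, and all other cells were incubated with IL-2/IL-33. The state was set from live images of 1 secreted cytokine, either IL-13 or IL-5, and that cytokine is the index of the cell: transition state cells were recovered 30, 60 or 90 min after the onset of secretion, activated cells were secreting when collected late in the stimulation and silent cells were not. Each of the 2 indexes had 5 pre-stimulation cells and 11 cells in each of the other 5 states, which makes 12 groups. Each cell gave 1 library of 3′ end reads, counted per gene, and such counts carry no information on splice isoforms or protein. According to the study's methods, donors of ILC2s were as a rule retired female breeders, and no age in weeks is given in the sources used here.

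Each group is 1 sample for the purpose of comparison, since cells of 1 culture are not replicates. No p-value was therefore computed. Levels are counts per 1000000 gene reads (CPM) of the summed counts of a group, intervals are exact 95% intervals that cover counting error only, and the spread is shown by the single cells. A gene was called past 2-fold when its log2 ratio was at least 1 in size in both indexes, and these calls were made for the 4866 genes that averaged 20 CPM or more across groups. Of the 45 members, 42 met that minimum. The other 3 were Hnrnpll with a mean of 14.6 CPM, Sf3a2 with 4.67 CPM and Srsf12 with 0 reads in all cells.

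Gene reads numbered 31016336 in all. The median cell held 254001 of them, the shallowest 65 and the deepest 785198. Group totals ran from 964383 to 3732032 reads, the lowest being pre-stimulation cells of the IL-13 index. A total of 6 cells held under 84667 reads and were left out of per-cell values, which leaves 114 cells. All 12 ILC2 markers (Gata3, Il1rl1, Rora and others) had reads, with a summed level of 3883 to 9543 CPM by group, and Gata3 was read in 116 cells. Others were sparse, with Il17rb read in 13 cells, Areg in 14, Il7r in 46 and Thy1 in 53. In activated over pre-stimulation cells 2 of the 12 (Il2ra and Rora) were past 2-fold higher in both indexes. In the same comparison 3 (Gata3, Klrg1 and Ptprc) were lower. Of all tested genes 20.1% were higher and 13.0% lower. The 4 B cell markers were at 0 in every group, and the 5 macrophage and dendritic cell markers were at 0 in all but 2 groups, which held up to 38.3 CPM. Among the 4 mast cell markers nearly all reads were Fcer1a: the list summed to 301 CPM in IL-13 pre-stimulation cells, 99.7% of it in replicate 5, to 37.1 CPM in IL-5 pre-stimulation cells, to 48.5 and 233 CPM in activated cells, to 0 in 30 min and silent cells and to 51.5 to 326 CPM elsewhere. Of the 5 stromal, endothelial and fat cell markers only Pecam1 was read, at 0 and 5.77 CPM before stimulation, 38.5 and 175 CPM at 30 min, 2.82 and 1.61 CPM in activated and 80.9 and 11.1 CPM in silent cells. The 6 T cell markers summed to 1128 CPM in IL-13 pre-stimulation cells and to 1195 CPM in IL-5 pre-stimulation cells, all of it Cd3g and most of it in 1 cell of each group, to 0 in both activated groups and to 7.84 to 523 CPM elsewhere, with Cd4 and Cd8a at 0 throughout. The 12 cell cycle genes summed to 3108 CPM in IL-13 pre-stimulation cells, of which replicate 1 held 94.9%, and to 129 to 510 CPM in the other groups. The part of the T cell, mast cell, endothelial and cell cycle genes in the comparisons was not tested.

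Promoters are shown for 5 members (Srsf7, Srsf11, Hnrnpab, Sf3a3 and Sf3b3). These stood more than 2-fold higher in activated than in pre-stimulation cells of both indexes. They are 11.9% of the 42 tested members, against 20.1% of all tested genes past the same limit. Sequences are from RefSeq (GRCm38.p6), 250 bases before to 50 bases after the start, 5′ to 3′ on the gene's strand. Capitals mark matches on either strand to the searched motifs, namely CACGTG (E-box), CCGGAAG (ETS core), GGGCGG (GC box), TATAAA (the core of a TATA box), TGANTCA (AP-1) and an NF-kB-like motif.
Srsf7 promoter (chr17:80207256-80207555, minus strand): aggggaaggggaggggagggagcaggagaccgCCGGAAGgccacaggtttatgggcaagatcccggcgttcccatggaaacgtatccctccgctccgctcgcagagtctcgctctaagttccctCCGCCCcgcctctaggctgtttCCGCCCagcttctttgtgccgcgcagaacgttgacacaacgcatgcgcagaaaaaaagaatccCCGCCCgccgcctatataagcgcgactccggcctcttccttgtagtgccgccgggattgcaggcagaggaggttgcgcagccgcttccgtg
Srsf11 promoter (chr3:158036557-158036856, minus strand): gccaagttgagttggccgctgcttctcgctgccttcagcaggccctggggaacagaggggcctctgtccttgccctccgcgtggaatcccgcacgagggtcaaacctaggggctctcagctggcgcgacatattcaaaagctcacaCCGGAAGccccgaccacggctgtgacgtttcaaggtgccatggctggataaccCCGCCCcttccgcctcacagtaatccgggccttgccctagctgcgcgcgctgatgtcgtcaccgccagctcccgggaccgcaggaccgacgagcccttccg
Hnrnpab promoter (chr11:51606832-51607131, minus strand): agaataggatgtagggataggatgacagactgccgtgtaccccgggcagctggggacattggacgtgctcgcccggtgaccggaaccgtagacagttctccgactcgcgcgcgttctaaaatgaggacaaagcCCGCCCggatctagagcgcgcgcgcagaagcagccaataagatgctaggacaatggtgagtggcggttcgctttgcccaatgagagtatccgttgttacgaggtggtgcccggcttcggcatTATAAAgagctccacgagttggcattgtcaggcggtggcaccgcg
Sf3a3 promoter (chr4:124714611-124714910, plus strand): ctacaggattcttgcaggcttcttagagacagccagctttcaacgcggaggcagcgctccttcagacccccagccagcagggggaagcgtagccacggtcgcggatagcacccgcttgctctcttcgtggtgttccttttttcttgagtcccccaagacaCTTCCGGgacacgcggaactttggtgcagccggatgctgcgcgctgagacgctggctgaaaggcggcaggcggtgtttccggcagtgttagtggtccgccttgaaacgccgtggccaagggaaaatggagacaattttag
Sf3b3 promoter (chr8:110846754-110847053, minus strand): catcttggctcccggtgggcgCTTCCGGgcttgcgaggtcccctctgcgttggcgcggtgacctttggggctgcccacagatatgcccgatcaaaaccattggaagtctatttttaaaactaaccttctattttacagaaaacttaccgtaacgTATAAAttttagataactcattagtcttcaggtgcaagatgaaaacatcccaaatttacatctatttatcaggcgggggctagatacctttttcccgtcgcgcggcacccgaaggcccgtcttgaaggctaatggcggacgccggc

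Promoters were found for 40 of the 45 members. The GC box letters occurred in 30 of these 40 (75%) against 35.7% of 32851 promoters of the same length, and the ETS core in 12 of 40 (30%) against 8.86%. The 32851 promoters were not chosen by expression, were not limited to 1 per gene and do not cover every chromosome. Each member gave 1 promoter, so the 2 sets are unlike. TGANTCA occurred in 1 member promoter (Hnrnpa1) against 7.81% of all promoters, CACGTG in 4 against 7.15%, TATAAA in 5 against 13.6% and the NF-kB-like motif in 0 against 1.63%. Srsf7 held GC box letters 3 times and the ETS core once, and Srsf11 each of them once. Hnrnpab held GC box letters and TATAAA, Sf3a3 the ETS core, and Sf3b3 the ETS core and TATAAA. Matches describe letters in a window and are not evidence of binding.

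The splicing factor genes as a whole took between 0.809% and 1.11% of the gene reads of a group. In the IL-13 index the 45 genes held 0.826% of gene reads before stimulation (95% exact binomial interval 0.808 to 0.845%), 0.991% at 30 min, 0.902% at 60 min, 0.926% at 90 min, 0.943% in activated cells and 0.809% in silent cells. In the IL-5 index the shares were 0.833%, 0.930%, 1.06%, 1.11%, 0.977% and 0.942% in the same order. The spread between cells was wider than these differences: single cells of the IL-13 index ran from 0.456 to 1.13% before stimulation (median 0.846%) and from 0.776 to 1.16% when activated (median 0.955%), and those of the IL-5 index from 0.711 to 0.933% (median 0.804%) and from 0.725 to 1.21% (median 1.06%). Cells of all states overlapped. The log2 ratio of the share was 0.19 and 0.23 for activated over pre-stimulation cells in the IL-13 and IL-5 index, 0.26 and 0.16 for 30 min over pre-stimulation, and -0.03 and 0.18 for silent over pre-stimulation. Activated and silent cells differed by 0.22 and 0.05, and by 0.30 and 0.27 on the first title date alone, whereas on the second date the IL-13 value was 0.16 and the IL-5 value -0.14.

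**Figure D1:**
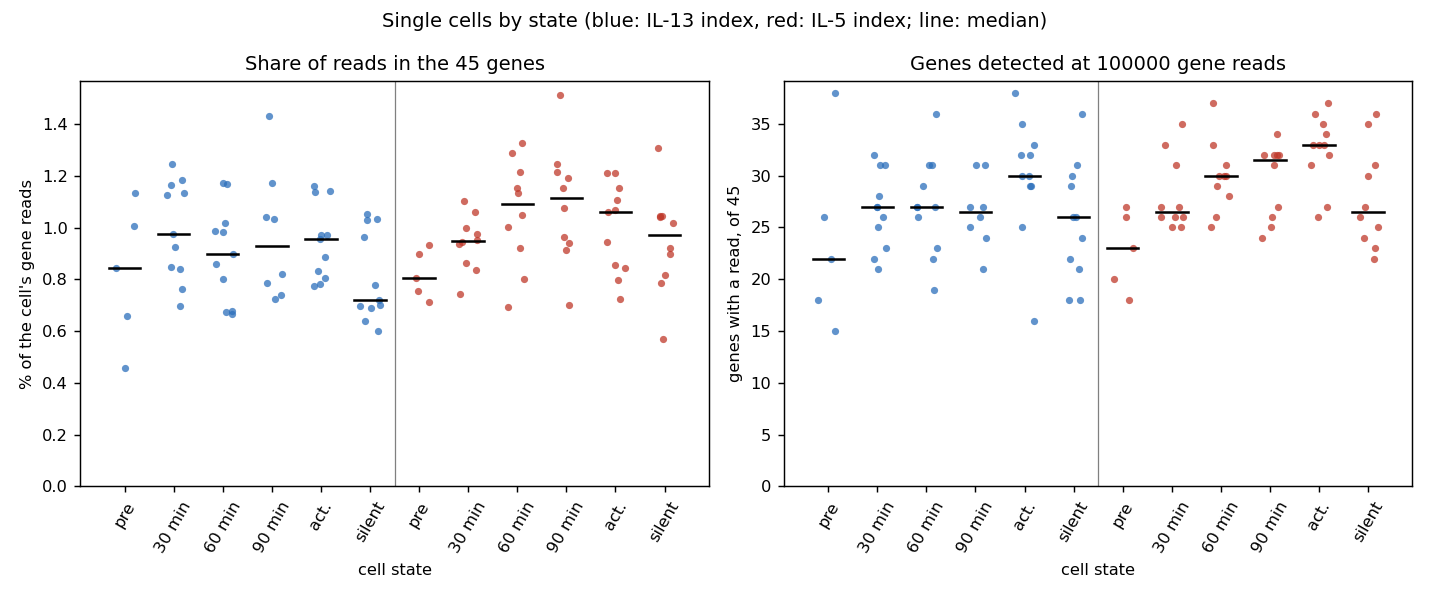
Percent of a cell's gene reads in the 45 splicing factor genes (left) and number of these genes with a read after thinning to 100000 gene reads (right), by index and state; each point is 1 of the 113 cells with that many reads and lines are medians over these cells. Medians of the share lie between 0.721% and 1.12% with overlapping cells in all groups, and the number detected has its lowest medians, 22 and 23, before stimulation and 30 and 33 in activated cells.

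More members were detected per cell after stimulation, as were more genes of all kinds. With each cell thinned to 100000 gene reads, which 113 cells reached and 7 did not, pre-stimulation cells showed a median of 22 members in the IL-13 index (15 to 38) and 23 in the IL-5 index (18 to 27). Activated cells showed 30 (16 to 38) and 33 (26 to 37), and silent cells 26 and 26.5. Without thinning the medians were 24 and 24 before stimulation and 32 and 34 in activated cells. Over the same thinned cells, the median number of all genes detected went from 1905 to 2923 and from 2235 to 3000, so the members made up 1.01 to 1.24% of the genes detected in every group.

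The members were expressed above the typical gene. The median of their mean CPM was 163 over the 42 tested members against 55.9 over the 4866 genes, and 33 members lay above that gene median. CPM here compare 3′ end reads and are not divided by length. The 6 members with most reads were Srsf3, a small SR protein that also takes part in mRNA export (mean 875 CPM), Hnrnpc, which binds uridine tracts of nascent RNA (689 CPM), Hnrnpa2b1, an hnRNP A/B protein (661 CPM), Hnrnpf, a binder of G-rich RNA (525 CPM), Hnrnpk, a binder of C-rich RNA (494 CPM), and Sf3b6, the SF3b subunit at the branch site (487 CPM). Srsf3 ranked 207 of 13264 genes with a read. Hnrnpa2b1, Sf3b6, Hnrnpk and Srsf3 were also the steadiest, with the highest group 1.70, 1.95, 2.00 and 2.03 times the lowest.

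**Figure D2:**
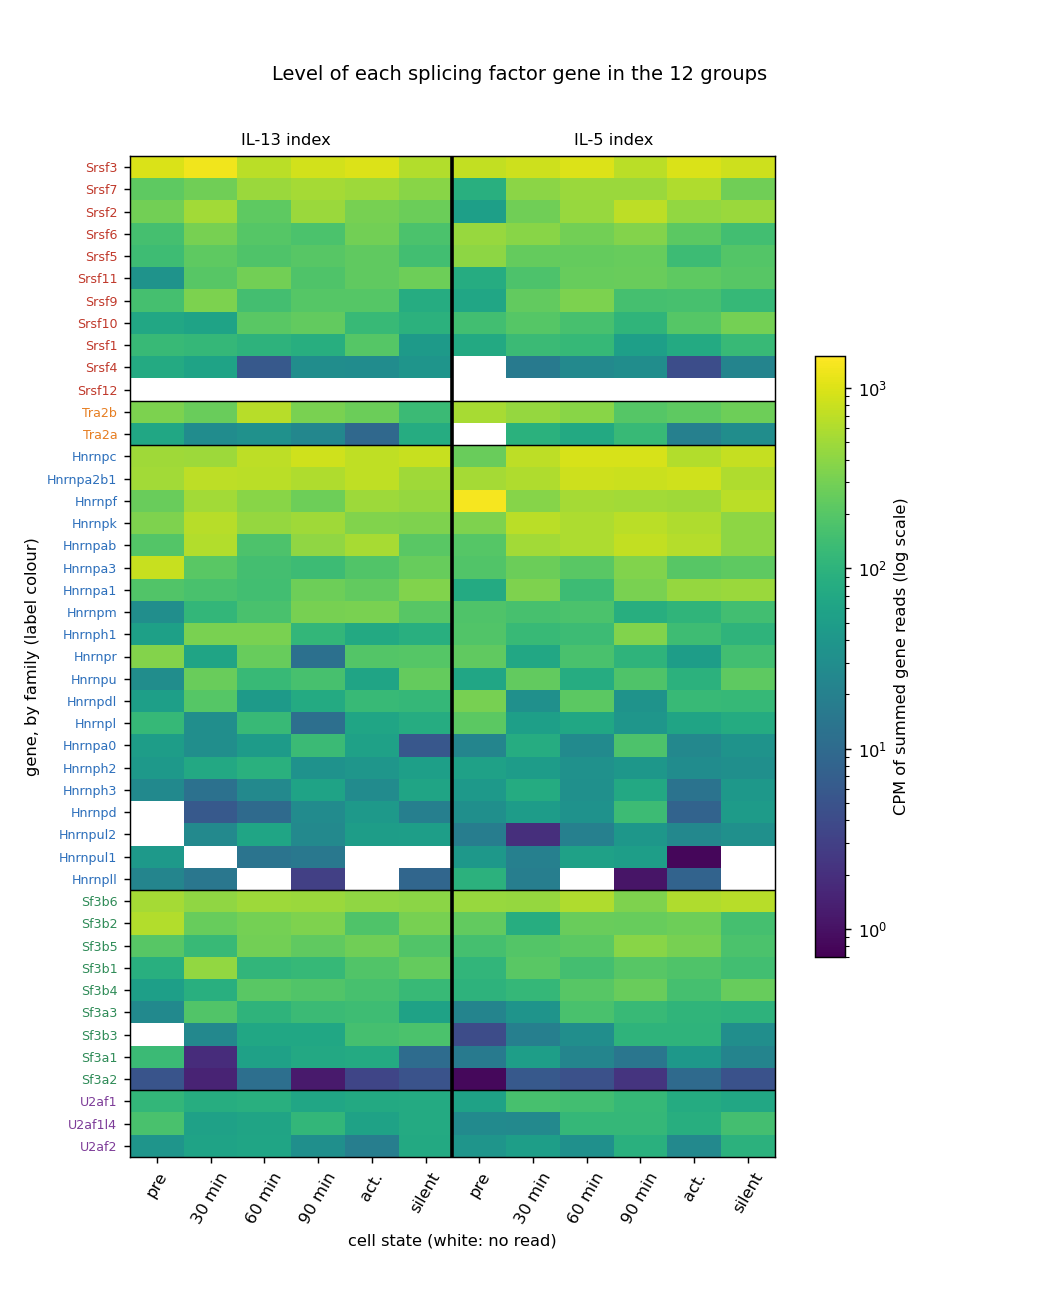
CPM of each of the 45 genes (lines, ordered by family) in the 12 groups of index and state (columns) on a log colour scale, white where a group had no read. Srsf3, Hnrnpa2b1, Hnrnpk and Sf3b6 keep 336 CPM or more in all groups (green to yellow), and Srsf12 is white throughout.

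Within the SR genes, the share of gene reads was 0.225% in IL-13 and 0.212% in IL-5 pre-stimulation cells, 0.338% and 0.290% at 30 min, 0.309% and 0.300% in activated cells and 0.213% and 0.271% in silent cells. Its log2 ratio was 0.59 and 0.46 at 30 min over pre-stimulation and 0.46 and 0.51 in activated over pre-stimulation cells, which exceeds the ratio over all 45 members in both indexes. On leaving out any 1 cell the activated ratio ran from 0.22 (without pre-stimulation replicate 2) to 0.72 (without replicate 1) in the IL-13 and from 0.31 (without replicate 5) to 0.90 (without replicate 2) in the IL-5 index, and the 30 min ratio from 0.35 to 0.85 and from 0.26 to 0.85 without the same cells. Of the 10 tested SR genes, 9 (IL-13 index) and 8 (IL-5 index) lay above 0 in activated against pre-stimulation cells, with medians of 0.72 and 0.63 against 0.29 and 0.26 over all genes. In activated against silent cells the SR median was 0.49 (IL-13 index) and -0.02 (IL-5 index). Single cells again overlapped: the SR share ran from 0.0332 to 0.336% before stimulation and from 0.263 to 0.379% after activation for the IL-13 index, and from 0.0663 to 0.361% and from 0.141 to 0.451% in the IL-5 index.

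Srsf7, an SR protein with a zinc knuckle (ENSMUSG00000024097, GRCm38 chromosome 17, 80200080 to 80207307, minus strand), stood higher in activated cells. In IL-13 pre-stimulation cells it measured 683, 5.92, 6.07, 0 and 208 CPM, and in IL-5 pre-stimulation cells 202, 0, 0, 0 and 378 CPM. Activated cells measured 178 to 806 CPM with a median of 439 (IL-13 index) and 244 to 1026 CPM with a median of 613 (IL-5 index). Every activated cell thus carried Srsf7, against 6 of the 10 pre-stimulation cells, although the highest pre-stimulation cells overlapped the activated ones. Summed levels were 482 against 223 CPM, a log2 ratio of 1.11 (counting interval 0.91 to 1.32), and 598 against 89.1 CPM, a ratio of 2.75. The IL-13 ratio came to 0.84, 0.85 and 0.83 without pre-stimulation replicates 2, 3 and 4, each of which puts it inside 2-fold, and to 2.88 without replicate 1, and the IL-5 ratio between 2.33 and 4.47.

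Srsf11, an SR-related protein that associates with the U2AF large subunit (ENSMUSG00000055436, chromosome 3, 158010473 to 158036639, minus strand), was read in 21 of 22 activated and 3 of 10 pre-stimulation cells. The pre-stimulation values were 138, 0, 0, 0 and 4.63 CPM (IL-13 index) and 0, 0, 0, 331 and 0 CPM (IL-5 index). Activated cells ran from 0 to 560 CPM (median 121) and from 2.15 to 697 CPM (median 154). Nearly all pre-stimulation reads lay in 1 cell of each index, so the ratios are loosely set: 2.66 in the IL-13 index (2.32 to 5.78 on leaving out any 1 cell) and 1.48 in the IL-5 index (1.06 to 6.09). The highest values were without pre-stimulation replicates 1 and 4, which left 1 and 0 reads. They are set against the 3-read floor and are lower bounds. The level was of the same order in all stimulated states, at 206 and 177 CPM at 30 min, 229 and 223 CPM in activated and 277 and 206 CPM in silent cells. The IL-5 ratio at 30 min, 1.14, came to between 0.72 and 0.98 on leaving out any of 6 cells (30 min replicates 3 and 6 and pre-stimulation replicates 1, 2, 3 and 5), and the IL-5 silent ratio, 1.36, to 0.73 without silent replicate 8 and 0.94 without pre-stimulation replicate 2. By date, Srsf11 in IL-13 activated cells was 81.0 CPM on the first date and 326 CPM on the second. The pre-stimulation cells were on the first date, at 36.3 CPM, and within that date the activated to pre-stimulation ratio was 1.16 in the IL-13 and 1.75 in the IL-5 index.

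Srsf9, a small SR protein, was past 2-fold higher at 30 min in both indexes. Pre-stimulation cells measured 89.4, 0, 358, 415 and 0 CPM (IL-13 index) and 0, 0, 302, 0 and 0 CPM (IL-5 index), against 333 and 240 CPM of summed counts at 30 min. Its log2 ratios were 1.09 (0.72 to 1.71 on leaving out any 1 cell, and inside 2-fold without any of IL-13 pre-stimulation replicates 1, 2 and 5 and 30 min replicates 3 and 4) and 1.87 (1.44 to 6.25, highest without IL-5 pre-stimulation replicate 3, the only such cell with reads). The value of 6.25 is thus set against the 3-read floor and is a lower bound. In activated cells the level was 199 and 162 CPM.

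The remaining SR genes showed no direction past 2-fold in both indexes in these comparisons apart from Srsf4. Srsf3 measured 1231, 5.92, 1888, 415 and 1171 CPM in IL-13 and 315, 809, 1824, 440 and 4.67 CPM in IL-5 pre-stimulation cells, and activated cells ran from 0 to 1471 CPM (median 1011) and 280 to 1320 CPM (median 1041). Its activated to pre-stimulation ratios were 0.03 and 0.37, and pre-stimulation and activated cells overlapped over most of their ranges. Srsf5 had a read in every cell at 30, 60 and 90 min and in every activated cell, in 9 of 10 pre-stimulation cells and in 18 of 21 silent cells. Srsf2, which recognises exonic enhancers, was lowest in IL-5 pre-stimulation cells, at 53.6 CPM, and its activated to pre-stimulation ratio was 3.00 there and 0.07 in the IL-13 index. Srsf1, the founding SR protein, was at 200.4 CPM in IL-13 activated and 46.1 CPM in IL-13 silent cells, a ratio of 2.12, while the IL-5 ratio was -0.66. Srsf6 differed in sign by index, with activated to pre-stimulation ratios of 0.89 and -1.09, and Srsf10 gave 0.79 and 0.46. In IL-5 pre-stimulation cells 96.2% of Srsf6 reads came from replicate 2, and without it that ratio was 3.22, while all 176 Srsf10 reads there came from replicate 4, and without it the Srsf10 ratio, set against the floor, was at least 5.94. Srsf4 was at 0 reads in IL-5 pre-stimulation cells and was read in 28 of 114 cells. Its activated to 30 min ratios were -1.01 and -1.93, but the IL-13 value was 1.14 without 30 min replicate 11 and 3.03 on the first date alone, and the IL-5 value was -0.50 without 30 min replicate 9.

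**Figure D3:**
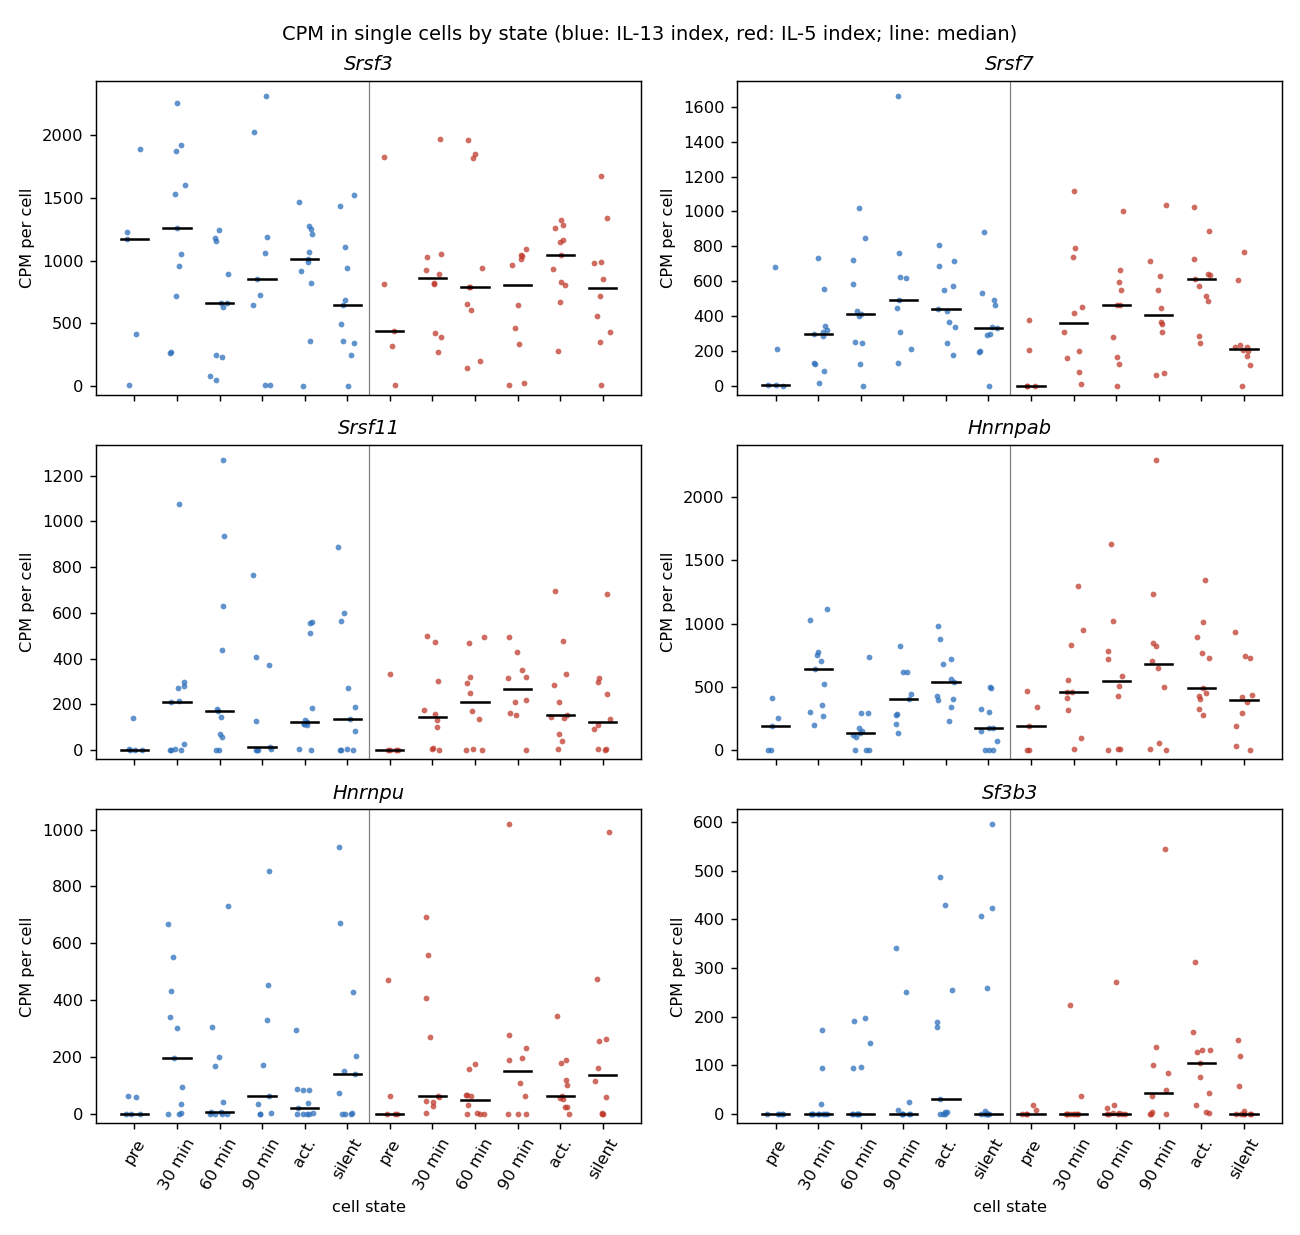
CPM of single cells for Srsf3, Srsf7, Srsf11, Hnrnpab, Hnrnpu and Sf3b3 in the 12 groups, for the 114 cells with at least 84667 reads; each point is 1 cell and lines are group medians. Srsf7 and Hnrnpab are above 0 in all 22 activated cells and at 0 in 4 of 10 pre-stimulation cells, and Sf3b3 is at 0 in 8 of 10 pre-stimulation cells.

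The Tra2 proteins are SR-like factors that bind GAA-rich exonic enhancers. Tra2b was read in all 5 IL-5 pre-stimulation cells at 352, 375, 374, 460 and 1303 CPM and in IL-13 pre-stimulation cells at 638, 5.92, 892, 0 and 83.3 CPM. It stood lower in silent than in pre-stimulation cells, at 129 against 335 CPM (log2 ratio -1.38) and 272 against 557 CPM (-1.03). Leaving out IL-13 pre-stimulation replicate 3 gave -0.77 and leaving out IL-5 pre-stimulation replicate 5 gave -0.54, which puts either value inside 2-fold. Tra2a was detected in 40 of 114 cells and was opposite between the indexes. In the IL-13 index it was 68.4 CPM before stimulation and 9.39 CPM in activated cells, a ratio of -2.86. In the IL-5 index it was at 0 reads before stimulation and 19.6 CPM in activated cells, at least 7.90-fold higher, and 93.2 CPM at 30 min, at least 37.7-fold higher. Activated cells lay below 30 min cells in both indexes, with ratios of -1.63 (-0.67 without 30 min replicate 3 and -0.84 without replicate 10) and -2.25.

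Among the hnRNP genes, the share of gene reads was 0.363% and 0.443% before stimulation and 0.429% and 0.454% in activated cells, ratios of 0.24 and 0.04. Of 19 tested hnRNP genes, 14 lay above 0 and 5 below in activated against pre-stimulation cells of the IL-13 index, and 9 above and 10 below in the IL-5 index, where the median over all genes was itself 0.29 and 0.26 and that over the hnRNP genes 0.41 and -0.42.

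Hnrnpab, an A/B type hnRNP that binds single-stranded nucleic acid (ENSMUSG00000020358, chromosome 11, 51600100 to 51606847, minus strand), was past 2-fold higher at 30 min and in activated cells. Pre-stimulation cells measured 414, 190, 0, 0 and 250.04 CPM (IL-13 index) and 187, 463, 0, 0 and 336 CPM (IL-5 index). Activated cells ran from 228 to 979 CPM (median 539) and from 281 to 1343 CPM (median 491), and all 21 of the 30 min cells with enough reads and all 22 activated cells carried a read. The ratios were 1.51 (1.23 to 2.21 on leaving out any 1 cell) and 1.68 (1.28 to 2.56) in activated cells, and 1.68 and 1.38 at 30 min, where leaving out IL-5 pre-stimulation replicate 4 gave 0.98. Activated cells were alike on the 2 title dates, at 578 and 541 CPM (IL-13 index) and 671 and 601 CPM (IL-5 index). The IL-13 level was 177 CPM at 60 min and 214 CPM in silent cells, close to the 195 CPM before stimulation, whereas IL-5 cells were at 577 CPM at 60 min and 404 CPM when silent. An exon of Phykpl overlaps Hnrnpab on the other strand, and the strand setting of the counting is not given in the sources used here.

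Hnrnpu, a scaffold protein of the nuclear matrix that also binds pre-mRNA (ENSMUSG00000039630, chromosome 1, 178321108 to 178337797, minus strand), was highest at 30 min and in silent cells. Pre-stimulation cells measured 60.9, 0, 0, 0 and 64.8 CPM and 472, 0, 64.2, 0 and 0 CPM. At 30 min single cells ran from 0 to 670 CPM (median 196) for the IL-13 index and from 2.26 to 693 CPM (median 62.5) for the IL-5 index, and 19 of 21 cells carried a read against 4 of 10 before stimulation. Summed levels were 256 and 240 CPM at 30 min, 62.6 and 96.2 CPM in activated and 242 and 224 CPM in silent cells. The log2 ratios were 3.09 and 1.86 at 30 min over pre-stimulation, 3.01 and 1.76 in silent over pre-stimulation, -2.03 and -1.32 in activated over 30 min and -1.95 and -1.22 in activated over silent cells. Within the first date, which holds the pre-stimulation cells, the ratios over pre-stimulation were 2.38 and 0.68 at 30 min and 3.27 and 0.58 in silent cells, so the IL-5 values were inside 2-fold there. Activated cells overlapped the others, with 0 to 295 and 0 to 344 CPM. The IL-5 values against activated cells depended on the date and on 1 cell: on the first date activated cells were at 157 CPM, silent cells at 98.3 CPM and 30 min cells at 106 CPM, which reversed both ratios to 0.68 and 0.57, and on the second date the levels were 51.2, 365 and 344 CPM. Without IL-5 silent replicate 11 the activated to silent ratio was -0.55, and without IL-5 30 min replicate 11 the activated to 30 min ratio was -0.84. In the IL-13 index activated cells were lower on both dates, at 71.5 against 289 CPM in silent cells on the first and 56.9 against 217 CPM on the second.

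Hnrnpr, a nuclear RNA-binding hnRNP, and Hnrnpl, a binder of CA repeats known for silencing CD45 exons, stood lower at 30 min than before stimulation. Hnrnpr measured 264, 0, 813, 877 and 4.63 CPM in IL-13 and 217, 0, 7.55, 532 and 420.2 CPM in IL-5 pre-stimulation cells. At 30 min it was at 62.0 and 68.7 CPM, with ratios of -2.54 and -1.73, and -0.94 without IL-5 pre-stimulation replicate 4. Hnrnpl measured 44.7, 0, 291, 332 and 0 CPM and 0, 740.4, 132, 0 and 0 CPM before stimulation, with ratios of -1.93 and -2.02 at 30 min. The IL-5 value for Hnrnpl rested on pre-stimulation replicate 2 and was 0.46 without it. Both genes were also present in activated cells, Hnrnpr at 194 CPM (78.6 CPM without replicate 10) and 49.6 CPM (31.4 CPM without replicate 1) and Hnrnpl at 63.9 CPM (36.8 CPM without replicate 9) and 60.8 CPM.

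Hnrnpul1, an hnRNP U-like protein, was read in 14 of 114 cells. It was at 24.4, 213, 0, 5.93 and 0 CPM in IL-13 and at 367, 0, 0, 0 and 4.67 CPM in IL-5 pre-stimulation cells, and at 0 reads in IL-13 30 min, IL-13 activated and both silent groups. Against the floor of 3 reads per group, IL-13 activated cells were at least 47.5-fold lower and IL-13 30 min cells at least 39.8-fold lower. Of the 43 IL-13 pre-stimulation reads 36 were in replicate 2, and without it these bounds came to -3.23 and -2.97 on the log2 scale. IL-5 activated cells held 3 reads, a log2 ratio of -5.68. Of the 50 reads in IL-5 pre-stimulation cells 49 were in replicate 1, and without it 1 read remained, so that no ratio could be given and the calls in activated and silent cells ended. At 30 min in the IL-5 index the ratio was -1.07. Without pre-stimulation replicate 1 it turned to at least 2.83, set against the 3-read floor, so that comparison rests on the same cell. The gene was at 56.8 and 51.9 CPM at 60 and 90 min of the IL-5 index, carried by 2 cells and 1 cell of those with enough reads.

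Hnrnpll, an hnRNP L paralogue that governs CD45 exon use in lymphocytes, was too low for a call. It was read in 15 of 114 cells, with 44.7, 0, 0, 0 and 50.9 CPM in IL-13 and 247, 0, 0, 3.41 and 397 CPM in IL-5 pre-stimulation cells. Group levels were 22.8 and 98.2 CPM before stimulation, 0 and 8.04 CPM in activated cells and 0 to 18.9 CPM in the other groups. Of the 10 pre-stimulation cells, 5 carried a read, against 2 of 22 activated cells.

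Members that pointed in opposite directions in the 2 indexes were mostly low. Hnrnpdl was at 52.9 CPM in IL-13 and 308 CPM in IL-5 pre-stimulation cells and at 122 and 121 CPM in the activated groups, giving ratios of 1.20 and -1.35, the first 0.83 without IL-13 pre-stimulation replicate 5 (and inside 2-fold without any of 5 further cells) and the second -0.76 without IL-5 pre-stimulation replicate 4. Hnrnpd, an AU-rich element binder, was at 0 reads in IL-13 pre-stimulation cells and at 42.6 CPM in activated ones, at least 13.7-fold higher, and at 32.2 and 8.04 CPM in the IL-5 index, a ratio of -2.001, which came to -0.46 without IL-5 pre-stimulation replicate 2 (29 of the 39 reads). Against silent cells its ratios were 1.14 and -2.55, the latter -0.17 without IL-5 silent replicate 11 and 0.49 on the first date. Hnrnpul2 was at 0 reads in IL-13 pre-stimulation cells and 25.8 CPM at 30 min, at least 8.29-fold higher. Without IL-13 30 min replicate 10, which held 49 of the 69 reads, that level was 8.19 CPM. In the IL-5 index Hnrnpul2 was at 18.1 and 1.97 CPM, a ratio of -3.20 that rests on IL-5 pre-stimulation replicate 4, which held all 22 reads. Hnrnph3 was read in 29 of 114 cells and stood lower in activated than in silent cells, at 28.5 against 61.2 CPM (-1.10, and -0.18 without IL-13 silent replicate 8) and 13.1 against 41.8 CPM (-1.67, and -0.57 without IL-5 silent replicate 8). Against 30 min cells its ratios were 1.21 (0.83 without IL-13 activated replicate 2) and -2.57. The IL-13 30 min level of 12.3 CPM rested on replicate 5, with 31 of the 33 reads, and was 0.814 CPM without it.

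Of the abundant hnRNP genes, Hnrnpa2b1 and Hnrnpk were steady over the groups, whereas Hnrnpf, Hnrnpa3, Hnrnpa1 and Hnrnpm had a highest group 5.15, 5.95, 6.25 and 10.3 times the lowest. Hnrnpa2b1 was in all 10 pre-stimulation cells, at 581, 11.8, 868, 462 and 639 CPM and at 427, 313, 819, 648 and 378 CPM, with activated medians of 647 and 816 CPM and ratios of 0.44 and 0.69. Hnrnpc had activated to pre-stimulation ratios of 0.53 and 1.26 and Hnrnpk of 0.01 and 0.83. Hnrnpf differed between the indexes before stimulation, at 540.4, 41.5, 407, 0 and 204 CPM in the IL-13 and 997, 1673, 438, 1804 and 1559 CPM in the IL-5 index, with ratios of 0.89 and -1.43 in activated cells. Hnrnpa3 showed the reverse, at 609, 889, 801, 1938 and 41.7 CPM and at 0, 9.79, 0, 754 and 0 CPM, and was at 190 and 202 CPM in activated cells. Both pre-stimulation groups received no stimulus but carry different title dates, so index and date cannot be told apart in these 2 genes. Hnrnpa1 was at 186 and 76.7 CPM before stimulation and 240.5 and 449 CPM in activated cells, Hnrnpm at 31.1 and 184 against 320.0 and 106 CPM, and Hnrnph1 at 55.0 and 185 against 73.0 and 138 CPM. Single cells set several of these levels before stimulation. All 30 IL-13 reads of Hnrnpm were in replicate 1, and without it this lowest group of Hnrnpm would hold 0 CPM. Hnrnpa1 was at 71.6 CPM without IL-13 replicate 2 and 3.17 CPM without IL-5 replicate 3, Hnrnpm at 121 CPM without IL-5 replicate 3, and Hnrnph1 at 36.2 CPM without IL-13 replicate 1 and 35.3 CPM without IL-5 replicate 2. In activated cells Hnrnph1 was at 90.0 CPM without IL-5 replicate 5. Hnrnpa0 and Hnrnph2 had means of 57.6 and 47.9 CPM and were read in 48 and 59 of 114 cells.

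**Figure D4:**
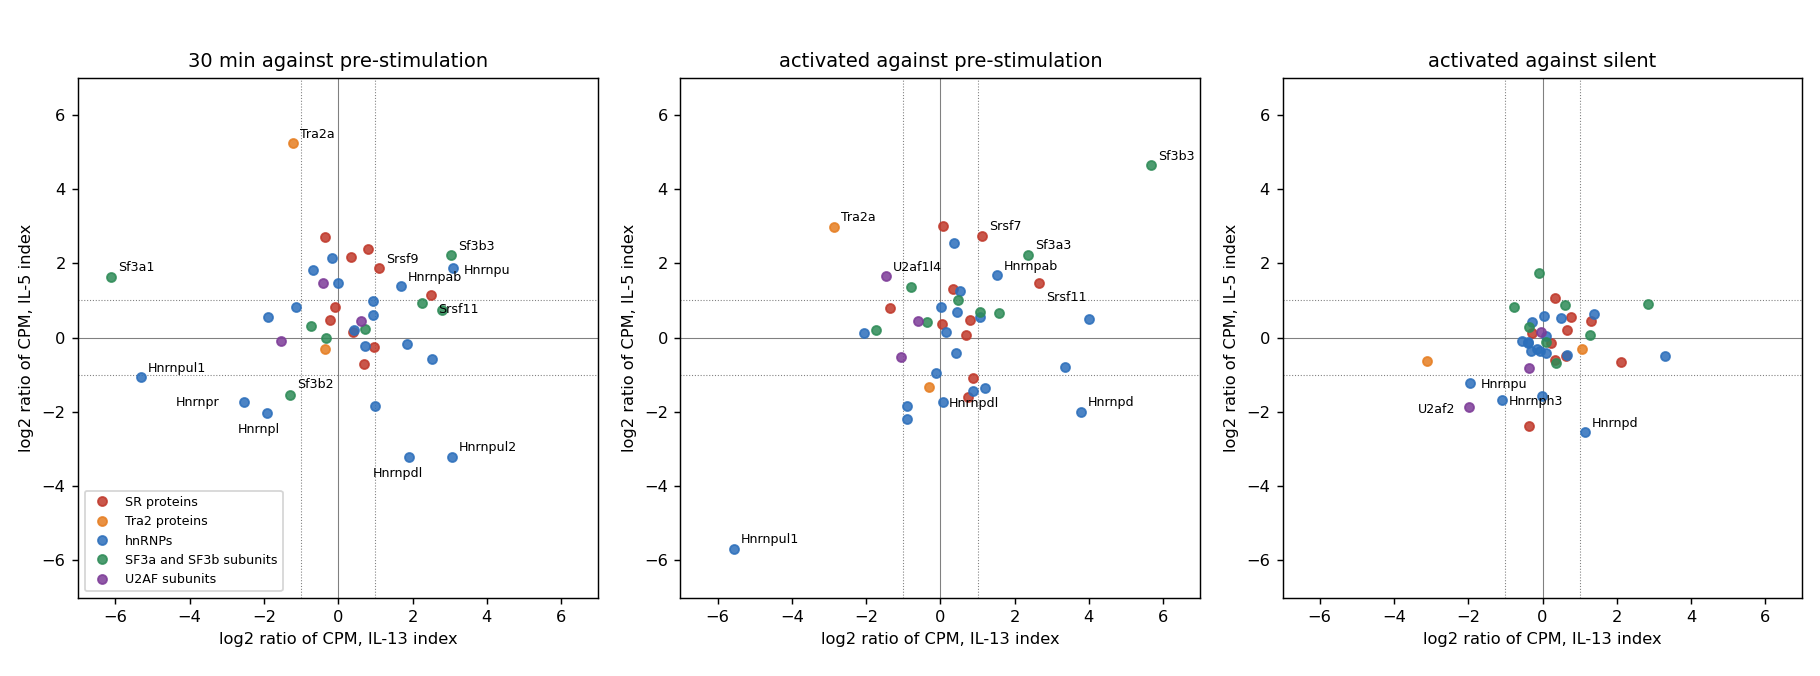
Log2 ratio of each tested member in the IL-13 index (horizontal) against the IL-5 index (vertical) for 30 min over pre-stimulation, activated over pre-stimulation and activated over silent cells; dotted lines mark 2-fold and groups with no read are set to the 3-read floor. In the panel of activated over pre-stimulation cells 5 genes (11.9% of 42) lie past 2-fold above and 1 (2.38%) below in both indexes. Of all tested genes 20.1% and 13.0% did so. In that of activated over silent cells 0 lie above and 3 (7.14%) below, against 6.14% and 10.9% of all tested genes.

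Among the SF3 subunits, Sf3b3, an SF3b scaffold subunit (ENSMUSG00000033732, chromosome 8, 110810239 to 110846787, minus strand), was at 0 reads in all 5 IL-13 pre-stimulation cells, which allows up to 3.11 CPM, and at 7.498, 0, 0, 0 and 18.7 CPM in IL-5 pre-stimulation cells. Activated cells ran from 0 to 487 CPM (median 30.5) and from 2.39 to 313 CPM (median 105), with reads in 19 of 22 cells against 2 of 10. After thinning to 100000 reads, 6 and 10 of 11 activated cells carried a read, against 0 and 2 of 5 before stimulation. Summed levels in activated cells were 158 CPM, at least 50.7-fold higher than before stimulation, and 103 CPM, a ratio of 4.64 (4.22 to 5.10 on leaving out any 1 cell). Without IL-5 pre-stimulation replicate 5 only 1 read was left there, so 5.10 is set against the 3-read floor and is a lower bound. At 30 min the level was 25.4 CPM, at least 8.17-fold higher, and 19.1 CPM, a ratio of 2.21 that came to 0.22 without IL-5 30 min replicate 4. The IL-13 level at 30 min was 13.7 CPM without replicate 3, which held 34 of the 68 reads. Activated cells stood above 30 min cells with ratios of 2.64 and 2.43, which came to 0.57 and 1.82 on the first date. Silent cells held 169 CPM in the IL-13 and 30.7 CPM in the IL-5 index. On the first date, which the pre-stimulation cells share, activated cells were at 50.9 and 118 CPM. Exons of Gm22193 and Snord111 lie within Sf3b3 on its strand and Cog4 overlaps it on the other, and their reads could not be separated here.

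Sf3a3, a subunit of SF3a, was at 102, 5.92, 0, 0 and 0 CPM in IL-13 and at 195, 3.26, 0, 0 and 0 CPM in IL-5 pre-stimulation cells. Activated cells held 138 and 105 CPM with ratios of 2.36 (at least 5.05 without pre-stimulation replicate 1) and 2.24 (at least 5.24 without replicate 1). Leaving out that cell left 1 read in either pre-stimulation group, so these bounds are set against the 3-read floor. Silent cells held 57.4 and 100.1 CPM. The silent ratios, 1.09 and 2.17, came to 0.02 and 0.34 without the silent replicate 11 of each index. Sf3b2, which contacts the branch site region, stood lower at 30 min, at 251 against 615 CPM (-1.29, and -0.59 without IL-13 pre-stimulation replicate 2) and 82.8 against 241 CPM (-1.54), from pre-stimulation cells at 219, 1730, 1123, 172 and 153 CPM and 195, 183, 321, 419 and 9.34 CPM. Sf3b4 stood higher in silent than in pre-stimulation cells, with ratios of 1.22 and 1.36, and 0.86 and 0.94 at the lowest on leaving out 1 cell (IL-13 silent replicate 4 and IL-5 pre-stimulation replicate 2). Sf3a1 was opposite at 30 min: 131 CPM before stimulation, 80.2% of it in replicate 3, against 1.87 CPM in the IL-13 index (-6.13), and 16.5 against 51.5 CPM in the IL-5 index (1.64, and 0.54 without IL-5 30 min replicate 7). Sf3b1, the subunit that clamps the branch site, had ratios of 2.26 and 0.93 at 30 min and 1.08 and 0.70 in activated cells. Sf3b6 stayed between 336 and 656 CPM and Sf3b5 between 123 and 382 CPM over the 12 groups. Sf3a2 was between 0.825 and 11.4 CPM.

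The U2AF genes gave no member past 2-fold higher in both indexes in any of these comparisons. U2af2, the large subunit that binds the polypyrimidine tract, stood lower in activated than in silent cells, at 18.5 against 73.3 CPM (-1.99) and 26.3 against 96.6 CPM (-1.88). Silent cells ran from 0 to 434 and from 0 to 585 CPM with medians of 0 and 12.5 CPM, and activated cells from 0 to 138 and 0 to 114 CPM, so the difference lay in a few silent cells: without IL-13 silent replicate 9 the ratio was -0.62 and without IL-5 silent replicate 3 it was -0.91. U2af1, the small subunit that reads the AG at the intron end, had activated to pre-stimulation ratios of -0.59 and 0.44. U2af1l4, its paralogue, was opposite, at 164 CPM before stimulation and 58.9 CPM after activation for the IL-13 index (-1.48, and -0.63 without pre-stimulation replicate 3) and at 27.2 and 86.0 CPM in the IL-5 index (1.66), where all pre-stimulation reads were in replicate 1. An exon of Psenen overlaps U2af1l4 on the other strand.

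The counts of members past 2-fold are given beside the percentage of all tested genes past the same limit, which is their background. At 30 min against pre-stimulation, 5 of 42 members were past 2-fold higher in both indexes (Hnrnpab, Hnrnpu, Sf3b3, Srsf11 and Srsf9) against 17.4% of the 4866 genes, 4 were lower (Hnrnpl, Hnrnpr, Hnrnpul1 and Sf3b2) against 8.57%, and 4 were opposite against 16.1%. In activated against pre-stimulation cells 5 were higher (Hnrnpab, Sf3a3, Sf3b3, Srsf11 and Srsf7) against 20.1%, 1 was lower (Hnrnpul1) against 13.0% and 4 were opposite against 14.7%. Silent against pre-stimulation cells gave 5 higher (Hnrnpu, Sf3a3, Sf3b3, Sf3b4 and Srsf11) against 17.4%, 2 lower (Hnrnpul1 and Tra2b) against 7.73% and 3 opposite against 16.4%. These 3 comparisons share the pre-stimulation cells. In activated against silent cells 0 were higher against 6.14%, 3 lower (Hnrnph3, Hnrnpu and U2af2) against 10.9% and 1 opposite (Hnrnpd) against 11.2%, and in activated against 30 min cells 1 was higher (Sf3b3) against 9.54%, 3 lower (Hnrnpu, Srsf4 and Tra2a) against 12.1% and 2 opposite against 11.0%. As 5 of 42 is 11.9%, the members' share in the higher direction lay below the background in each of these comparisons, and in the lower direction it lay above it at 30 min (9.52%) and below it in the other 4. Under other settings the higher share passed the background in 5 cases: with TMM factors at 30 min (21.4% against 20.4%), on the first title date alone in activated over pre-stimulation cells (19.0% against 18.2%) and over silent cells (9.52% against 9.00%), and with no minimum level at 30 min (11.1% against 9.33%) and in silent cells (11.1% against 10.1%). The lower share at 30 min fell short of the background on the first date (9.52% against 11.1%), with all transition cells (2.38% against 7.32%) and with pooled pre-stimulation cells (7.14% against 16.5%), and with no minimum level the lower share passed it in silent over pre-stimulation (6.67% against 4.40%, and 6.98% against 6.81% with a minimum of 5 CPM) and in activated over 30 min cells (8.89% against 7.40%). Leaving out 1 cell ended the call for 4 of the 5 higher and all 4 lower members at 30 min, 1 of 5 and the 1 lower member in activated cells, 3 of 5 and both lower members in silent cells (all over pre-stimulation), all 3 lower in activated against silent and all 3 lower in activated against 30 min cells. Of the opposite calls it ended 3 of 4, 3 of 4, 3 of 3, 1 of 1 and 2 of 2 in the same order. Pre-stimulation cells were all on the first of the 2 title dates of their index. Within that date the 5 higher calls and the 1 lower call in activated over pre-stimulation cells held, as did all 4 lower calls at 30 min, whereas 2 of the 5 higher at 30 min (Hnrnpu and Srsf11), 3 of the 5 higher in silent cells (Hnrnpu, Sf3a3 and Srsf11) and 1 of the 2 lower in silent cells (Tra2b) ended. All 3 lower calls over silent cells, the 1 higher call over 30 min cells and all 3 lower calls over 30 min cells ended too. The calls for Hnrnpab, Sf3a3, Sf3b3 and Srsf11 (higher in activated than in pre-stimulation cells) held both within the date and on leaving out any 1 cell. That for Srsf7 held within the date only.

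The sizes of the differences were also smaller among members. Past 2-fold in a single index were 19.0 to 54.8% of members over the 10 comparisons, against 44.1 to 67.2% of all genes. The median size of the log2 ratio in activated against silent cells was 0.40 among members and 1.16 among all genes (IL-13 index), and 0.51 and 0.86 (IL-5 index). The median signed ratio was 0.39 against 0.29 and 0.45 against 0.26 in activated over pre-stimulation cells. The members have higher counts than the typical gene, and the part of this in the smaller differences was not tested.

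Pre-stimulation groups were the least evenly filled. Of the 41 members with over 3 reads in IL-13 pre-stimulation cells, 24 had more of them in 1 cell than in the other cells together, and 31 of 41 did so in IL-5 pre-stimulation cells, against 7 of 42 and 5 of 43 in activated cells. Pre-stimulation groups had 5 cells against 11, so such a share is reached more readily there. Without the cell that held most of its reads, the level of 28 of 41 members in IL-13 and 34 of 41 in IL-5 pre-stimulation cells dropped by more than 1.5 times, against 11 of 42 and 7 of 43 in activated cells and 13 to 21 in the other groups, so group levels before stimulation are loosely set for most members.

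Other genes of the splicing pathway were read from lists of related factors. In activated against pre-stimulation cells, 8 of 23 snRNP protein genes were past 2-fold higher in both indexes, 1 lower and 1 opposite, with median ratios of 0.93 and 0.96. Snrpb2, a protein of the U2 particle, was at 383 against 32.1 CPM and 375 against 125 CPM, and Snrpa, a protein of the U1 particle, at 47.9 against 12.4 CPM and 68.3 against 6.60 CPM. The Prpf and helicase genes of the spliceosome gave 8 higher, 0 lower and 5 opposite of 21. Cdc5l, a core protein of the Prp19 complex, was at 192 CPM against 1.04 CPM, which was 1 read, in the IL-13 index and at 124 CPM against 0 reads in the IL-5 index. Kinases of SR proteins and SR-related genes gave 2 higher, 5 lower and 3 opposite of 20. Srpk2, a kinase that phosphorylates SR proteins, was at 88.1 and 217 CPM before stimulation and at 0 reads in both activated groups. Silent cells held 178 CPM of Srpk2 in the IL-13 and 3.59 CPM in the IL-5 index. Pnn, a nuclear speckle protein, was higher in activated cells at 86.7 against 11.4 CPM and 71.5 against 8.25 CPM. Other splicing regulators gave 6 higher, 5 lower and 3 opposite of 28, with Cirbp, a cold-inducible RNA-binding protein, at 9.08 against 336 CPM and 10.2 against 78.4 CPM. Nonsense-mediated decay genes gave 1 higher, 1 lower and 2 opposite of 12. In activated against silent cells these lists gave 2 higher and 0 lower, 2 and 2, 0 and 3, 1 and 3, and 0 and 0 in the same order. These counts stand beside the 20.1% and 13.0% of all genes for activated over pre-stimulation and the 6.14% and 10.9% for activated over silent cells. Values by single cell and title date are not given for the genes of these lists.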

How the data were processed

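Single-cell 3′ end cDNA libraries were made from sorted mILC2s with 5 or 6 libraries pooled before tagmentation. According to the study's methods and the submitters' processing notes, the authors aligned reads to the mouse genome (GRCm38) with TopHat2 and deposited raw read counts per gene from HTSeq, without normalization. The notes list a human and a mouse build. The strand setting and annotation release are not given in the sources used here. Of all reads listed, 62.0% lay in genes, 7.42% in no feature, 1.86% were ambiguous and 28.7% aligned to several places, and only gene reads were used. Depth ran from 65 to 785198 gene reads per cell, which limits precision for the shallow cells.

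Ensembl identifiers were named from GENCODE M21 (45229 named, 849 not). Counts were summed per group and divided by gene reads (CPM). Ratios used a floor of 3 reads over a group, and none was given where both groups held 3 reads or fewer. Ratio intervals are exact binomial (Clopper-Pearson) and level intervals exact Poisson, at 95%, for counting error only. Since each group is 1 sample, no count model was tested. edgeR 4.0.16 (TMM) and DESeq2 1.42.0 gave alternative size factors only, in R 4.3.3. Other steps used Python 3.11.15, pandas 2.3.3 and scipy 1.17.1, and the scripts were tested on simulated data. Members and lists were chosen with earlier results of these data known.

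Values were given in full for the 6 members with most reads, up to 3 highest and 3 lowest members per comparison among those past 2-fold in both indexes, Hnrnpll, members past 2-fold in opposite directions, and up to 2 genes of each related list and comparison. Srsf7, Srsf9, Hnrnpab, Sf3b2 and Sf3b4 fell outside that rule and were described after their values were seen, because they were past 2-fold in both indexes, and the remaining members were named to account for all 45, with their values known. Alternatives were other size factors, minimum levels, title dates, transition times, cytokine genes left out, single cells left out, and the cells' own means. What the dates in the sample titles (2 per index, none shared) mark is not stated in the labels. Replicate numbers follow accession order and only name cells.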

Additional observations from a re-analysis of the deposited data

Results flagged for a closer look

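Among 52 groups of 5 pre-stimulation cells examined, 1 cell stood apart from the others by Dixon's criterion in 18. In 7 of these the other 4 cells held 0 reads and in 9 more 3 of the other cells did, so the rate of about 1 in 20 that holds for continuous values does not apply. In the IL-13 index these were Hnrnpdl in replicate 3 at 267 CPM, Hnrnph3 in replicate 4 at 154 CPM, Hnrnpul1 in replicate 2 at 213 CPM, Sf3a1 in replicate 3 at 613 CPM, Sf3a3 in replicate 1 at 102 CPM, Srsf11 in replicate 1 at 138 CPM and U2af2 in replicate 3 at 188 CPM. In the IL-5 index replicate 1 stood apart for Hnrnpu at 472 CPM, Hnrnpul1 at 367 CPM, Sf3a3 at 195 CPM, U2af1l4 at 247 CPM and U2af2 at 345 CPM. Replicate 2 did so for Hnrnpl at 740.4 CPM, replicate 3 for Hnrnph3 at 200.2 CPM and replicate 5 for Tra2b at 1303 CPM. Replicate 4 did so for Hnrnpul2 at 75.0 CPM, Sf3a1 at 68.2 CPM and Srsf11 at 331 CPM.

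The 2 indexes pointed in opposite directions past 2-fold in 14 cases, and these differences were not tested. Pre-stimulation cells held 0 reads of Hnrnpul2 and Hnrnpd in the IL-13 index and of Tra2a and Srsf4 in the IL-5 index. For these genes the differences against pre-stimulation cells are set by the 3-read floor and are at least the printed size. As the IL-13 log2 ratio minus the IL-5 log2 ratio, the difference at 30 min against pre-stimulation was 5.12 for Hnrnpdl, 6.25 for Hnrnpul2, -7.77 for Sf3a1 and -6.47 for Tra2a. In activated against pre-stimulation cells it was 5.78 for Hnrnpd, 2.55 for Hnrnpdl, -5.85 for Tra2a and -3.14 for U2af1l4. In silent against pre-stimulation cells it was 2.50 for Hnrnpdl, -4.17 for Srsf4 and -3.61 for U2af1l4. In activated against silent cells it was 3.69 for Hnrnpd, and in activated against 30 min cells 5.45 for Hnrnpd and 3.78 for Hnrnph3.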

How the results depend on the processing

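No paired analysis was possible because replicate numbers follow accession order, so they pair no cells, and the values come from no test. Comparisons within a title date are given below. TMM factors moved the median ratio of all genes by up to 0.47, and DESeq2 factors by -0.18 to 0.11. The causes of the moves below were not tested, beyond the fewer cells or genes that some settings hold. The share of reads in the 45 genes is given as log2 ratios in the order 30 min, activated and silent over pre-stimulation, activated over silent and activated over 30 min. Leaving out any 1 cell gave ranges of 0.13 to 0.38, 0.0591 to 0.31, -0.16 to 0.0847, 0.18 to 0.27 and finally -0.14 to -0.0233 (IL-13 index). The IL-5 ranges were 0.11 to 0.22, 0.19 to 0.29, 0.13 to 0.24, 0.00712 to 0.0903 and finally 0.0311 to 0.11. With TMM the IL-13 values were 0.48, 0.43, 0.0233 (a change of sign from -0.03, whose counting interval includes 0) and 0.40 for the first 4, and the IL-5 values 0.52, 0.70, 0.56, 0.15 and 0.19. With DESeq2 factors they were 0.37, 0.12, -0.16, 0.28 and -0.25 in the IL-13 index, and 0.20, 0.31, 0.15 (activated over silent) and 0.11 in the IL-5 index. With cytokine genes left out, activated over pre-stimulation, silent and 30 min cells gave 0.29, 0.32 and 0.0192 (IL-13, the last reversed) and 0.36, 0.16 and 0.16 (IL-5). The first date alone gave 0.30, 0.30 and 0.0395 (reversed) in the IL-13 index and 0.38, 0.27 and 0.19 in the IL-5 index, with 0.10 for silent over pre-stimulation. The second date gave 0.16 and -0.15 for activated over silent and 30 min cells in the IL-13 index, and -0.14 and -0.0231 (both reversed) in the IL-5 index. All 33 transition cells in place of 30 min gave 0.19 and 0.29 over pre-stimulation, and 0.00499 and -0.0588 (both reversed) for activated over them. The cells' own means gave 0.20, 0.28 and 0.0784 for 30 min and activated over pre-stimulation and activated over silent in the IL-5 index. Without IL-13 pre-stimulation replicate 1, chosen after seeing the data, the IL-13 values over pre-stimulation were 0.37, 0.30 and 0.08, the last with the same change of sign.

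Counts of members past 2-fold in both indexes, higher and lower, on leaving out any 1 cell were 4 to 6 and 3 to 5 at 30 min, 4 to 7 and 0 to 3 in activated, 3 to 8 and 1 to 2 in silent cells, all over pre-stimulation, 0 to 1 and 2 to 4 for activated over silent and 1 to 2 and 2 to 4 for activated over 30 min. The share of all genes ran in the same order from 16.8 to 19.4% and 7.40 to 9.04%, 19.6 to 22.3% and 11.6 to 13.2%, 16.9 to 19.6% and 7.17 to 8.30%, 5.82 to 6.84% and 10.2 to 11.9%, and 9.15 to 10.7% and 11.9 to 12.8%, and the members' share passed it on leaving out 19 of 32 cells for lower at 30 min and in none of the others. TMM gave 9 and 8 higher at 30 min and in activated cells over pre-stimulation (21.4% and 19.0% of members, against 20.4% and 24.1% of all genes under TMM), 1 lower in silent cells (against 6.27%), and 1 higher for activated over silent (against 7.32%), as did DESeq2 factors (7.01%) and leaving out cytokine genes (7.21%), which also gave 2 higher over 30 min (against 10.9%). The first date gave 8 higher (19.0% against 18.2% of all genes) and 3 lower (7.14% against 13.9%) for activated and 4 lower (9.52% against 9.72%) for silent over pre-stimulation, 4 higher (9.52% against 9.00%) and 0 lower (against 8.86%) for activated over silent, and 1 lower over 30 min (against 10.2%). All transition cells gave 1 lower over pre-stimulation (against 7.32% of all genes). Over pre-stimulation, the cells' own means gave 3 lower in activated (against 12.6%) and 1 in silent cells (against 7.48%), and pooled pre-stimulation cells 3 lower in activated cells (against 21.6%). Of the 27 members left, a minimum of 100 CPM gave 3 higher in activated and in silent cells (against 20.0% and 13.2% of all genes), 2, 0 and 1 lower at 30 min, in activated and in silent cells (7.41%, 0% and 3.70% against 4.82%, 10.3% and 5.29%), 1 lower over silent (3.70% against 6.11%), and 0 higher and 1 lower over 30 min (against 7.06% and 11.5%). A minimum of 5 CPM or none gave 2 lower in activated cells (4.65% against 10.5% and 4.44% against 6.76% of all genes). Without IL-13 pre-stimulation replicate 1, silent cells had 8 higher (19.0% against 19.6% of all genes) and 1 lower (against 7.17%) and activated cells 3 lower (against 11.6%). Members detected were 25 at 50000 reads in IL-5 90 min cells, and with a 5-read limit 19, 26.5, 25 and 28 in IL-5 pre-stimulation, 60 min, 90 min and activated cells.

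Single genes reversed on the first date: Hnrnpd (0.49) and Hnrnpu (0.68) in activated over silent and Hnrnpu (0.57) over 30 min in the IL-5 index, Srsf4 (3.03) in activated over 30 min in the IL-13 index, and U2af1l4 in silent over pre-stimulation (0.23 and -1.21). Leaving out 1 cell reversed Hnrnpd in activated over 30 min (-2.93 to 0.64), Hnrnpl (-2.60 to 0.46) and Hnrnpul1 (-5.44 to 2.83, the latter a lower bound set by the floor) at 30 min in the IL-5 index, and Srsf4 in activated over 30 min (-2.42 to 1.14) and silent over pre-stimulation (-5.46 to 0.33) in the IL-13 index. Over all other settings, 290 values of named members moved by less than the counting error, 63 moved by more and 6 reversed. Of the lowest and highest values on leaving out 1 cell, 39 moved by less than the counting error, 100 by more and 5 reversed.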
